A study of Homo sapiens with 8 samples.

Results

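The genes described here are 32 genes of the ATF4 amino acid response, chosen by symbol from a list of ATF4, the transcription factors that act with it, and the enzymes, transporters and feedback genes it is known to control. All 32 were found among the 58440 gene identifiers of the count table, and all 32 had enough counts to be tested, together with 17144 genes in all. Messenger RNA had been sequenced from HEK293, a human embryonic kidney cell line, in a stably HTR1E-overexpressing line (genotype label HTR1E-stable) and in control HEK293 cells. HTR1E encodes a serotonin receptor that couples to inhibitory G proteins. Each line was collected with no ligand added or after serotonin (5-HT) at 1 µM for 1 h, and serum had been withdrawn for 3 h beforehand, which gave 4 groups of 2 samples. The protocol label names serotonin for every sample, and the title and treatment label tell the untreated samples apart. The labels do not say whether the stable line was 1 clone or a pool, what the control cells carried, or whether the 2 samples of a group were separate cultures, so p-values measure only the spread between these samples.

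ATF4 sits at the end of the integrated stress response. Kinases that sense missing amino acids, unfolded protein in the endoplasmic reticulum, viral RNA or lack of heme phosphorylate the initiation factor eIF2, which lowers general translation and allows the ATF4 reading frame to be translated. ATF4 protein then pairs with C/EBP-family partners on composite DNA elements and raises transcription of genes for amino acid uptake, amino acid synthesis and tRNA charging. Since much of this control acts on translation, ATF4 mRNA does not measure ATF4 protein.

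The names of the 8 count columns give the treatment and a letter, A or B, with or without a second letter R. The labels do not say which letter is which cell line, nor what R stands for, and no column could be tied to a single sample. Libraries are called A1 and B1 where the name has no R and A2 and B2 where it has one, with no order meant. The columns were therefore divided by the HTR1E transcript itself. The 4 columns with the letter A held 201.5 to 252.7 HTR1E counts per 1000000 counts of the library (CPM) and are called set A, high HTR1E. The 4 columns with the letter B held 0 to 0.399 CPM, with 0 HTR1E counts in both libraries without ligand and 2 and 3 counts in those after serotonin, and are called set B, low HTR1E. Reading set A as the HTR1E line and set B as the control line rests on these counts alone, and the HTR1E difference itself is no result. Any other difference between the 2 cultures cannot be told apart from the effect of HTR1E.

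Some libraries stood apart. Total counts ran from 2604885 to 9072278, and the no-ligand B1 library had the fewest. In that library 54.4% of counts lay on mitochondrial genes, 43.9% on mitochondrial ribosomal RNA, and 20245 genes were detected against 25095 to 26956 in the others. The serotonin B2 library had 36.3% mitochondrial counts, and the other 6 had 17.9% to 24.6%. In set A, the A2 library was below the A1 library for 28 of the 32 genes without ligand (median log2 difference -0.25) and for 29 of 32 after serotonin (median -0.57), while the median over all genes was 0.01 and -0.02. In set B without ligand the shift ran the other way, with B2 above B1 for 25 of 32 (median 0.41, against 0.09 over all genes) and 17 of 32 apart by more than 1.5-fold, as were 52.8% of all genes. After serotonin B2 was below B1 for 20 of 32 (median -0.16, against -0.02 over all genes). All 9 markers written down for the HEK293 background had counts. Their sum, in CPM without normalization, was 943 to 1210 in set A and 464 to 916 in set B. Single markers went both ways. PAX2 had 2.08 to 3.13 CPM in set A and 2.69 to 17.2 in set B. KRT8 had 227 to 290 in set A and 40.3 to 163 in set B. By edgeR, 1 of the 9 was lower in set A after serotonin (2.92% of all genes). Averaged over both treatments, 1 was higher (5.27%) and 1 lower (4.09%). The blood markers PTPRC and HBB and the fibroblast marker THY1 were at 0. Summed fibroblast markers reached 32.7 to 38.4 CPM in set A and 8.45 to 36.8 CPM in set B, with COL1A1 higher in set A without ligand, while blood markers (0.552 to 0.992 and 0 to 1.86 CPM) and endothelial markers (0.245 to 1.65 and 0.359 to 1.54 CPM) stayed near 0. The part of these library differences in the results was not tested.

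**Figure D1:**
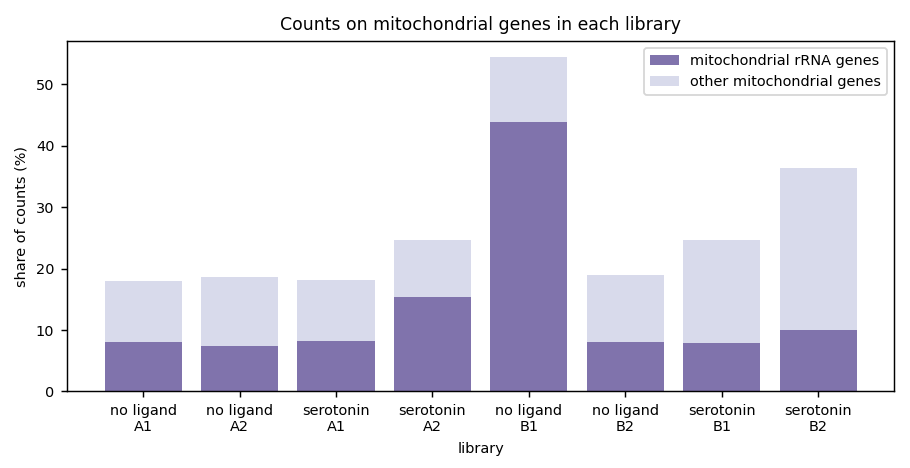
Share of all counts on mitochondrial genes (percent, vertical axis) in each of the 8 libraries, with mitochondrial ribosomal RNA in dark and the other mitochondrial genes in light colour. The no-ligand B1 library reached 54.4% and the serotonin B2 library 36.3%, against 17.9% to 24.6% in the other 6.

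The DNA element that ATF4 and its C/EBP partners share can be read as the letters TGATGNAA. It was searched on both strands in RefSeq promoters of the GRCh38.p14 build, from 250 bases before to 50 bases after each start site. Promoters were matched by symbol for 26 of the 32 genes, and only the first promoter listed for a gene was searched. PYCR1, PSPH, SHMT2, SLC7A11, NUPR1 and GPT2 had no promoter entry and were not searched. ASNS, CHAC1, SLC3A2 and SLC7A1 held a match, 4 of 26 (15.4%), and 1270 of all 35116 promoters (3.62%) did. The 2 sequences below are shown because their match lies before the start site, at -68 in ASNS and, on the opposite strand, at -209 in CHAC1. They run from chr7:97872429-97872516 on the minus strand and from chr15:40953222-40953309 on the plus strand, and the capitals mark the match.
ASNS: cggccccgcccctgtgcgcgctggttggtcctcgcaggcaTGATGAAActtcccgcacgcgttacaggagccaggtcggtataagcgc
CHAC1: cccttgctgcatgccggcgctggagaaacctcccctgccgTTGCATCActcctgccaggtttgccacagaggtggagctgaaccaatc
No match was found within this window for CEBPG, ATF5, PPP1R15A, SLC7A5 or PCK2, which differed between the sets below. A match is a run of letters and does not show binding.

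Levels were compared between genes per transcript length, as TPM, the length-scaled share of a library's transcripts, computed from the counts. SLC1A5, a glutamine transporter, had the highest median over the 8 libraries at 757 TPM, and ATF4 was next at 411 TPM. ALDH18A1 followed with 164 TPM, SHMT2 with 122 TPM and SLC3A2 with 121 TPM. The lowest medians were 1.07 TPM for NUPR1, 1.52 TPM for JDP2, 1.72 TPM for CBS and 2.90 TPM for ASNS. NUPR1 had only 2 to 48 counts in a library. ASNS, the asparagine synthetase, is understated, because 44.6% of its exon bases are shared with another annotated gene on the same strand and read pairs there were not counted for either. CBS has a near-identical annotated copy, so its value is uncertain.

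**Figure D2:**
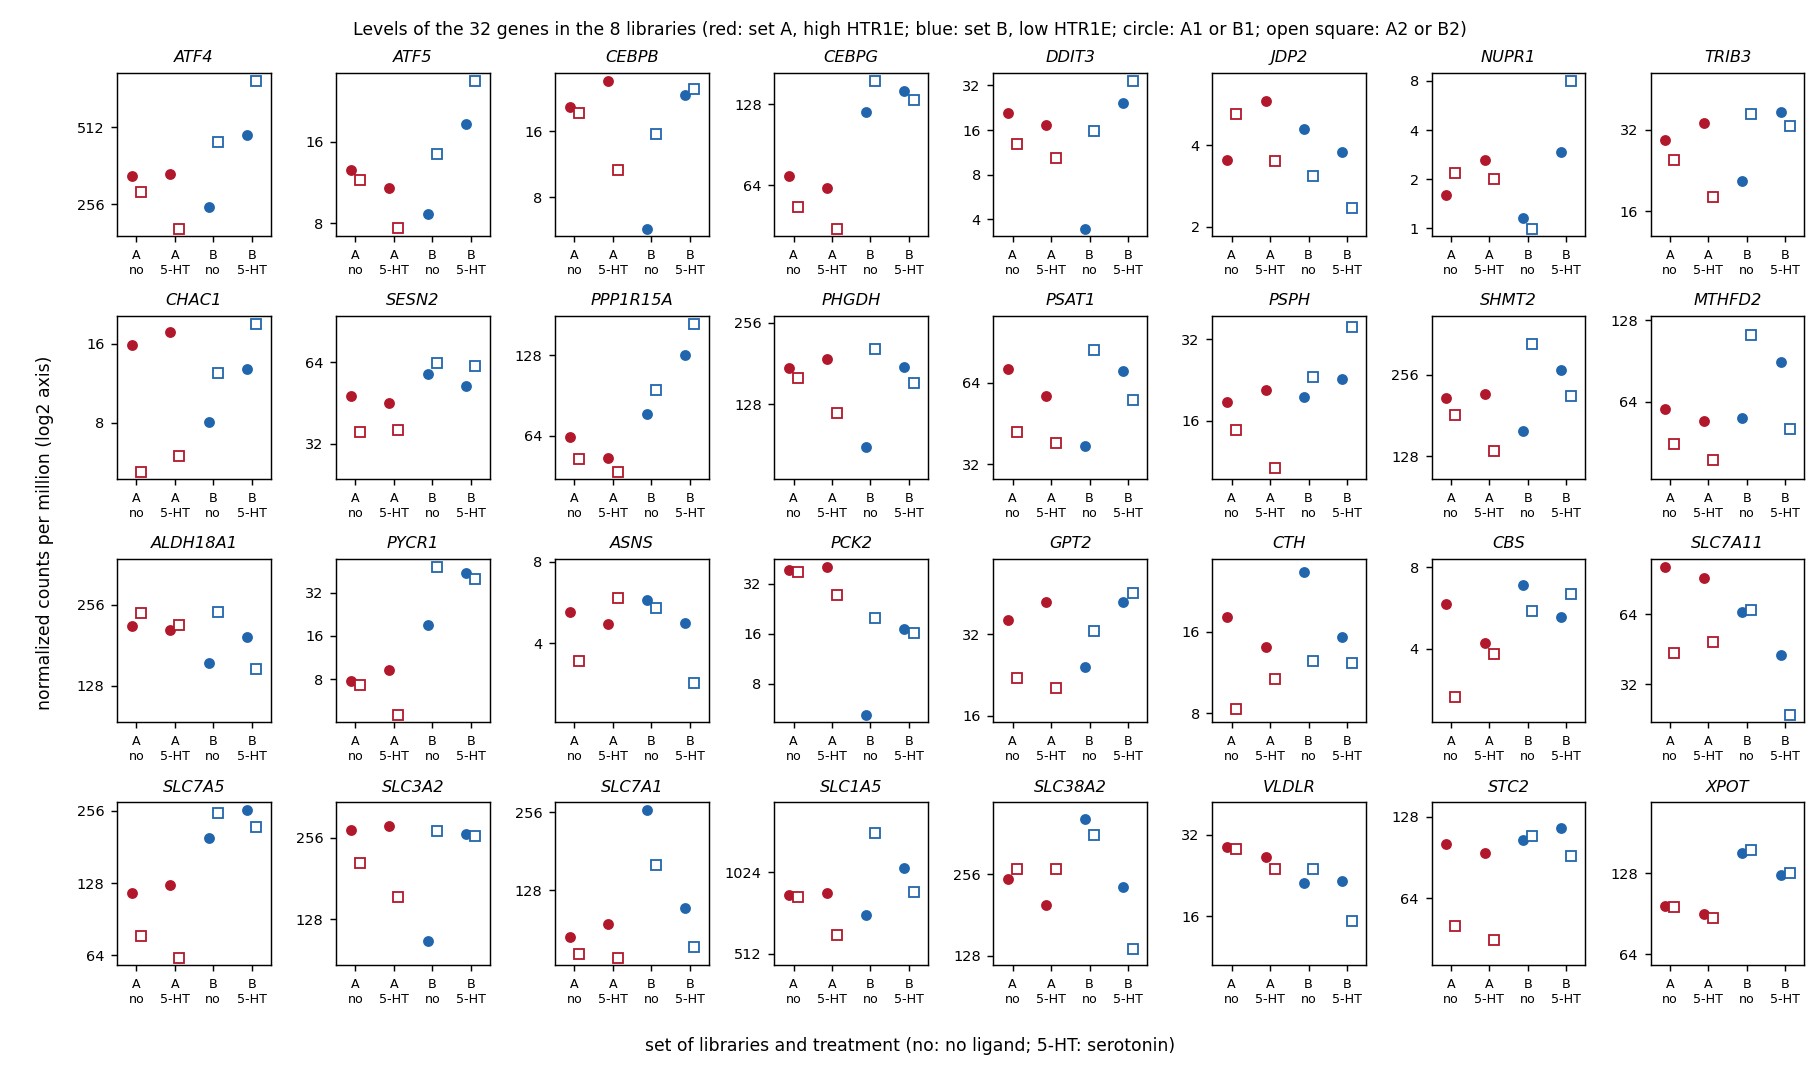
Normalized CPM (log2 axis) of each of the 32 genes in the 8 libraries, by set and treatment on the horizontal axis, with circles for the A1 or B1 library and open squares for the A2 or B2 library. Set A (red) lay wholly below set B (blue) for CEBPG, PYCR1, SLC7A5, SESN2, PPP1R15A and XPOT, and wholly above it for PCK2.

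The clearest difference between the sets was in proline synthesis, and it concerned 1 of its 2 enzymes. PYCR1, which carries out the final step from pyrroline-5-carboxylate to proline in mitochondria, is on chromosome 17 (hg38, 81932384 to 81942412, minus strand). Without ligand its normalized CPM was 7.79 and 7.29 in set A (libraries A1 and A2) against 19.0 and 48.6 in set B (B1 and B2). After serotonin it was 9.29 and 4.51 in set A against 44.1 and 40.04 in set B. Every set A library lay below every set B library, and the no-ligand B1 library was the lowest of set B. PYCR1 was 4.69-fold lower in set A without ligand (log2 fold change -2.23 ± 0.43 SE, n = 2 against 2, edgeR adjusted p = 0.0228). After serotonin it was 5.996-fold lower (-2.58 ± 0.44, n = 2 against 2, edgeR adjusted p = 0.00952). ALDH18A1, the enzyme that makes pyrroline-5-carboxylate from glutamate, differed by 0.18 ± 0.32 without ligand and 0.30 ± 0.32 after serotonin on the log2 scale, and neither passed the test. Of PYCR1's exon bases, 14.1% are shared with MYADML2 on the same strand. In RNA from whole cultures, fewer cells with a transcript and less of it per cell cannot be told apart.

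PYCR1 was the only one of the 32 genes past an adjusted p of 0.05 without ligand. It was lower, where 0.904% of all 17144 genes were lower in set A, and 0 of the 32 were higher, where 1.52% of all genes were. After serotonin 4 of 32 were lower, against 2.92% of all genes, and 0 were higher, against 2.33%. The median log2 difference of the 32 genes was -0.26 without ligand and -0.44 after serotonin, and over all genes it was 0.03 and 0.02. With scaling by library size alone, these medians became 0.03 and -0.16 for the 32 genes and 0.36 and 0.30 for all genes, so the sign of the first depends on the scaling. The 2 comparisons between sets use different libraries, and the test of whether they differ is the test of the 2 serotonin responses given below.

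**Figure D3:**
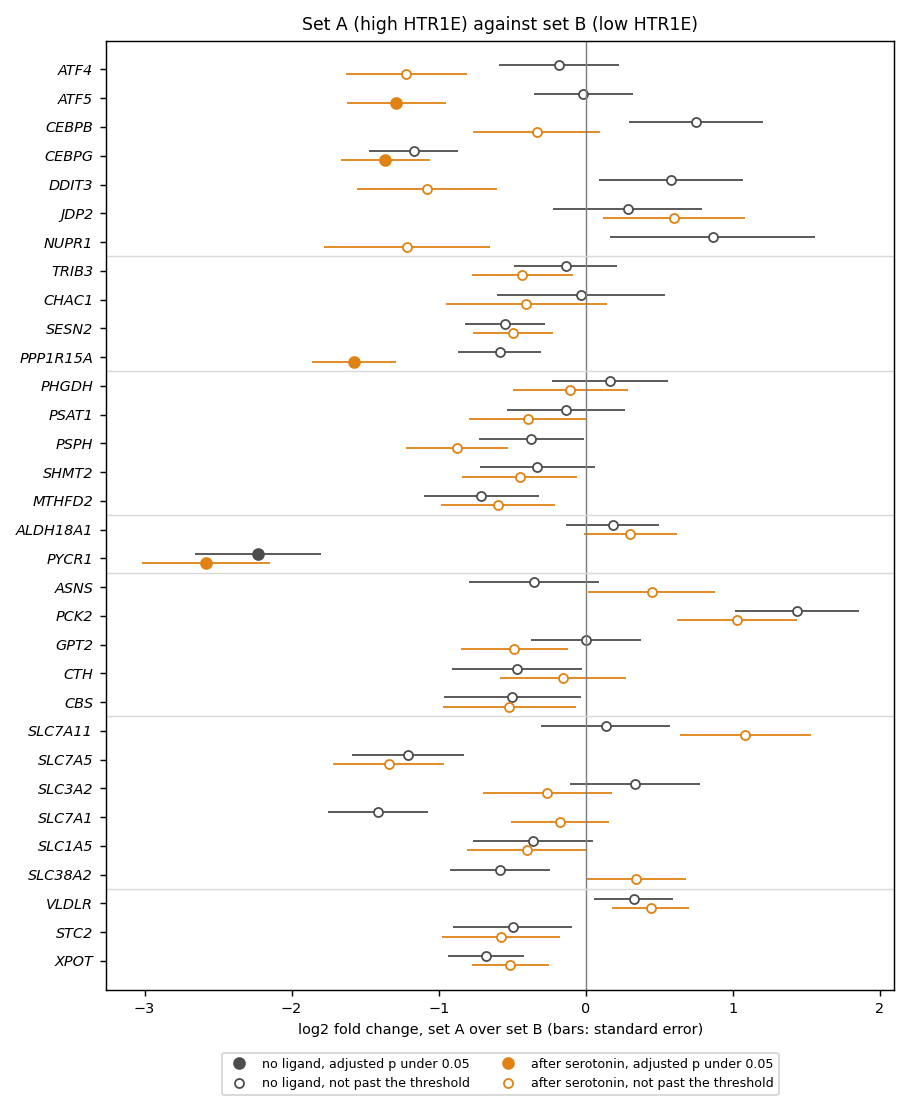
Log2 fold change of set A over set B (horizontal axis, bars are standard errors) for each of the 32 genes, without ligand in grey and after serotonin in orange, with filled points for an edgeR adjusted p under 0.05. PYCR1 is filled in both comparisons, and CEBPG, ATF5 and PPP1R15A after serotonin, all to the left of 0.

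Among the 7 transcription factors, CEBPG and ATF5 were lower in set A after serotonin. CEBPG, a C/EBP-family partner of ATF4, had 62.7 and 44.3 normalized CPM in set A and 143 and 133 in set B after serotonin. It was 2.57-fold lower (-1.36 ± 0.30, edgeR adjusted p = 0.0292). Without ligand it had 69.5 and 53.3 in set A and 119 and 156 in set B, a difference of -1.17 ± 0.30 that did not pass the test (edgeR adjusted p = 0.0717). The 4 set A libraries lay below the 4 set B libraries. ATF5, an ATF4-related factor of the same response, had 10.8 and 7.69 in set A and 18.7 and 26.8 in set B after serotonin. It was 2.44-fold lower (-1.29 ± 0.33, edgeR adjusted p = 0.0494). Without ligand the sets overlapped for ATF5, at 12.6 and 11.5 against 8.64 and 14.4, and the difference was -0.02 ± 0.34.

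ATF4 itself did not pass in either treatment in the filtered edgeR fit of all 8 libraries. Without ligand its normalized CPM was 330 and 284 in set A and 248 and 447 in set B. After serotonin it was 335 and 205 in set A and 477 and 782 in set B. The sets overlapped without ligand and did not overlap after serotonin, where the difference was -1.22 ± 0.41 (edgeR adjusted p = 0.103). This call depends on the setting. ATF4 passed after serotonin in DESeq2 (-1.26, adjusted p = 0.019), without the low-count filter (-1.20, edgeR adjusted p = 0.0377) and with only the 4 serotonin libraries in the fit (-1.22, edgeR adjusted p = 0.0342). It also passed without the no-ligand B1 library, the no-ligand B2 library or both high-mitochondrial libraries, but these fits leave 1 library in a group. A crossed replicate block, with the letter R swapped between the serotonin A1 and A2 libraries, gave an edgeR adjusted p of 0.0361. That pairing is not in the labels and was added to the planned fits, so no conclusion is drawn from it. Over all 17 alternatives the difference ran from -1.63 to -0.83 with adjusted p from 0.0087 to 0.593. CEBPB, DDIT3, JDP2 and NUPR1 also did not pass in the filtered edgeR fit of all 8 libraries. DDIT3 passed after serotonin, lower in set A, without the low-count filter and with only the serotonin libraries in the fit. CEBPB, DDIT3 and NUPR1 had positive log2 differences without ligand (0.58 to 0.86) and negative ones after serotonin (-1.22 to -0.33). DDIT3 encodes CHOP, the factor tied to cell death under lasting stress, and had 3.46 normalized CPM in the no-ligand B1 library, from 6 counts, against 10.4 to 34.5 in the other 7.

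Of the 4 feedback and stress effector genes, PPP1R15A was lower in set A after serotonin. Its product, GADD34, brings a phosphatase to eIF2 and ends the response. PPP1R15A had 52.6 and 46.9 normalized CPM in set A and 129 and 168 in set B, which was 2.98-fold lower (-1.57 ± 0.29, edgeR adjusted p = 0.0135). Without ligand it had 63.2 and 52.4 against 77.2 and 95.3, a difference of -0.58 ± 0.28 (edgeR adjusted p = 0.284). The sets did not overlap in either treatment. SESN2, a leucine sensor that restrains mTORC1, had 35.4 to 47.9 in set A and 52.3 to 63.4 in set B, and neither of its differences (-0.55 ± 0.27 and -0.49 ± 0.27) passed. TRIB3, an inhibitor of ATF4 activity, and CHAC1, which breaks down glutathione, had overlapping sets.

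The calls on the 4 genes rest on few libraries. Leaving out the no-ligand A1, the no-ligand A2 or the serotonin B2 library ended the PYCR1 call without ligand (edgeR adjusted p = 0.213, 0.261 and 0.0577), and leaving out the no-ligand B2 library moved it to -1.29. After serotonin 0 of the 32 genes remained past the threshold without the serotonin A2 or the serotonin B2 library, where PYCR1 had edgeR adjusted p = 0.132 and 0.0884. Without the serotonin A1 library PYCR1 alone passed, without either no-ligand set A library PYCR1 and PPP1R15A passed, and without the serotonin B1 library CEBPG did not pass. Leaving out the no-ligand B1 or the no-ligand B2 library changed the counts. Without the no-ligand B1 library, 3 of 32 passed without ligand, where 2.94% of all genes did, and 9 of 32 after serotonin, where 18.1% did. Without the no-ligand B2 library, 7 of 32 passed without ligand, where 20.1% of all genes did, and 4 of these 7 (DDIT3, CEBPB, SLC3A2 and PCK2) were higher in set A. The same library left out, 9 of 32 passed after serotonin, 7 lower and 2 higher, where 18.2% of all genes did. With scaling by library size alone 0 of 32 passed in either treatment, and with only the 4 no-ligand libraries in the fit 0 of 32 passed without ligand. With the 2 libraries highest in mitochondrial counts both left out, a choice made after seeing the data that leaves 1 set B library per treatment and assumes it varies like the rest, 8 of 32 genes passed without ligand, where 8.42% of all genes did, and 8 of 32 after serotonin, where 10.1% did. PYCR1 was then at -2.70 and -2.64, CEBPG at -1.36 and -1.42, PPP1R15A at -0.74 and -1.37 and ATF4 at -0.56 and -0.83, without ligand and after serotonin.

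Of the 32 genes, 6 had all 4 set A libraries below all 4 set B libraries, namely SESN2, CEBPG, PYCR1, SLC7A5, XPOT and PPP1R15A, and 7.62% of all genes did. PCK2 was the 1 gene with all set A libraries above, as 9.96% of all genes were. The difference between the sets was then averaged over both treatments in the same fit, a comparison added after the data were seen. In it 4 of 32 were lower in set A, against 4.09% of all genes, and 1 was higher, against 5.27%. PYCR1 was at -2.41 ± 0.31 (edgeR adjusted p = 0.000881), CEBPG at -1.27 ± 0.21 (0.00441) and PPP1R15A at -1.08 ± 0.20 (0.0074). The number past the threshold was 1 without the no-ligand A2 library (2.79% of all genes), 2 without the no-ligand A1 library (3.01%) and 3 without the serotonin A2 library (3.83%). It was 13 without the no-ligand B1 library (16.4% of all genes) and 2, PYCR1 and PCK2, with scaling by library size alone (7.13%). The median over the 32 genes was -0.30, with 23 of 32 below 0, and over all genes it was 0.00; with scaling by library size alone these medians were 0.01 and 0.31. With the 2 high-mitochondrial libraries left out, 14 of 32 were lower and 1 higher, where 19.3% of all genes passed in either direction, and ATF4 was at -0.69 (edgeR adjusted p = 0.00629).

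SLC7A5 and PCK2 passed in that average and in neither single treatment in the filtered edgeR fit of all 8 libraries. Both passed without ligand in DESeq2, and both passed in each treatment without the 2 high-mitochondrial libraries. SLC7A5 is the catalytic chain of the LAT1 exchanger, which brings in leucine and other large neutral amino acids. Its normalized CPM was 117, 77.2, 126 and 62.5 in set A (no-ligand A1 and A2, serotonin A1 and A2) and 196, 250, 259 and 219 in set B (no-ligand B1 and B2, serotonin B1 and B2). It was 2.42-fold lower in set A, by -1.27 ± 0.27 (edgeR adjusted p = 0.014). Its pseudogene copy SLC7A5P1 held 11 to 24 counts per library. PCK2 is the mitochondrial form of phosphoenolpyruvate carboxykinase, which links the citric acid cycle to glycolytic intermediates and serine. In the same library order it had 38.9, 37.5, 40.6 and 27.4 in set A and 5.18, 19.8, 17.1 and 16.2 in set B, and it was 2.35-fold higher in set A (1.23 ± 0.29, edgeR adjusted p = 0.0247). The SLC7A5 call was lost without the no-ligand A1, no-ligand A2 or serotonin A2 library (edgeR adjusted p = 0.0524 to 0.122). The PCK2 call was lost without the no-ligand A1, no-ligand A2, serotonin A1, serotonin B1 or serotonin B2 library (edgeR adjusted p = 0.0783 to 0.115), and it moved to 1.98 without the no-ligand B2 library. PPP1R15A was lost without the no-ligand A1, no-ligand A2 or serotonin A2 library (edgeR adjusted p = 0.0561 to 0.0951) and CEBPG without the no-ligand A2 library (0.0641).

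**Figure D4:**
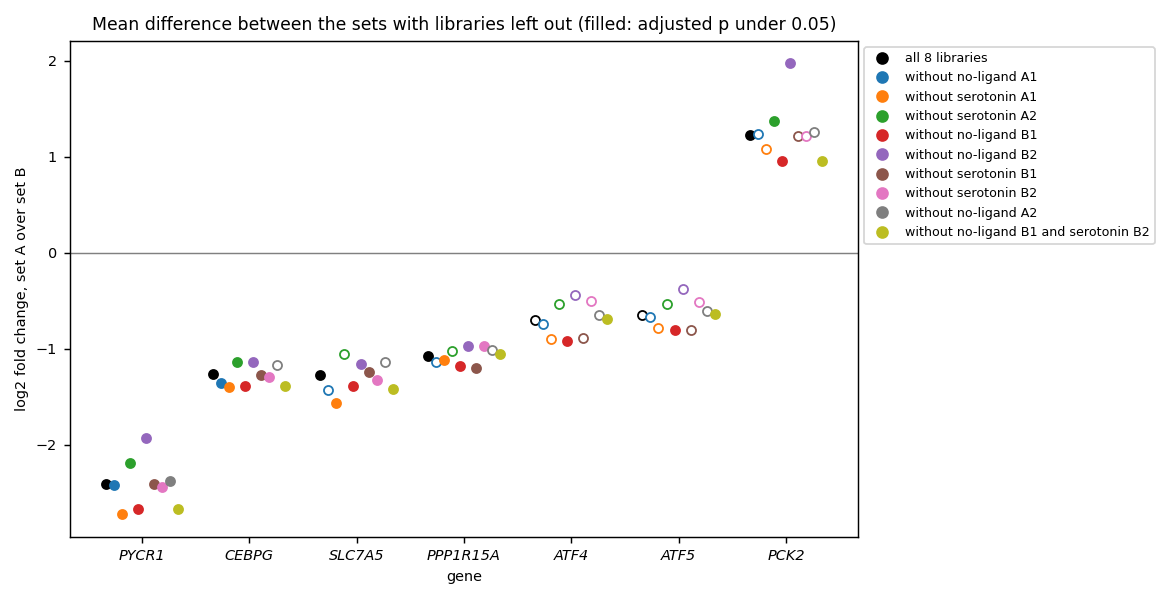
Log2 fold change of set A over set B averaged over both treatments (vertical axis) for 7 genes, with all 8 libraries in black and with libraries left out in colour, filled where the edgeR adjusted p was under 0.05. PYCR1 stayed between -2.72 and -1.93 and filled throughout, and PCK2 stayed above 0 but was filled in only part of the settings.

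None of the serine and one-carbon enzymes passed with all 8 libraries. PHGDH, PSAT1 and PSPH make serine from a glycolytic intermediate, and SHMT2 and MTHFD2 carry its carbon into mitochondrial folate. Averaged over both treatments their log2 differences ran from -0.65 ± 0.27 for MTHFD2 to 0.03 ± 0.28 for PHGDH, with edgeR adjusted p of 0.146 to 0.961. All 5 had overlapping sets. With the 2 high-mitochondrial libraries left out, PSAT1, SHMT2 and MTHFD2 were among the 14 that were lower.

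The other amino acid enzymes besides PCK2 were ASNS, GPT2, which interconverts alanine and pyruvate in mitochondria, and CTH and CBS of the transsulfuration route to cysteine. Their averaged differences lay between -0.51 ± 0.32 (CBS) and 0.05 ± 0.31 (ASNS), and none passed. The transporters other than SLC7A5 also did not pass in the filtered edgeR fit of all 8 libraries. SLC7A1 was lower in set A past the threshold in DESeq2, without ligand and in the average. Without the low-count filter SLC7A1 also passed without ligand, again lower. SLC7A11 passed after serotonin, higher in set A, without that filter and with only the serotonin libraries in the fit. SLC3A2, the heavy chain that carries SLC7A5 and SLC7A11 to the membrane, was at 0.04 ± 0.31, so the 2 chains of LAT1 had different values in the set comparison. SLC7A11, the cystine carrier, was at 0.61 ± 0.31, SLC1A5 at -0.38 ± 0.29 and SLC38A2, a sodium-coupled neutral amino acid carrier, at -0.12 ± 0.24. SLC7A1, the arginine and lysine carrier, had 261 and 160 normalized CPM in set B without ligand against 70.5 to 109 in the other 6 libraries, and its difference without ligand was -1.41 ± 0.34 (edgeR adjusted p = 0.0544). XPOT, which exports tRNA from the nucleus, had 87.5 to 96.4 in set A and 125 to 156 in set B. It was at -0.60 ± 0.18 in the average (edgeR adjusted p = 0.0672), and DESeq2 called it lower there. VLDLR, a lipoprotein receptor, was at 0.38 ± 0.19, and STC2, a secreted glycoprotein, at -0.54 ± 0.29.

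Serotonin changed none of the 32 genes past the threshold in either set. In set A, the set with the receptor transcript, 0 of 32 passed, as did 0% of all genes, and 0 of the 32 and 62 of the 17144 had an unadjusted p under 0.05 in edgeR. DESeq2 also called 0 genes there. The log2 responses in set A ran from -0.38 ± 0.33 for ATF5 to 0.29 ± 0.59 for NUPR1, and 26 of 32 were below 0 with a median of -0.11, against -0.02 over all genes. ATF4 was at -0.18 ± 0.41. With standard errors of 0.26 to 0.59 on the log2 scale, a small response was not detectable with 2 libraries a group.

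In set B, 0 of 32 passed and 0.0117% of all genes did, 2 genes, while 8 of the 32 and 4542 of all genes had an unadjusted p under 0.05. The values furthest from 0 were 2.37 ± 0.68 for NUPR1, a small stress-induced nuclear protein (edgeR adjusted p = 0.0826), and 1.39 ± 0.49 for DDIT3 (0.117). On the other side SLC7A1 was at -1.17 ± 0.34 (0.0833) and SLC38A2 at -1.07 ± 0.35 (0.1). NUPR1 had 1.15 and 0.991 normalized CPM without ligand and 2.93 and 8.04 after serotonin, and the highest value came from the serotonin B2 library. ATF4 was at 0.85 ± 0.41 (edgeR adjusted p = 0.208). The median response was 0.00 over the 32 genes and 0.01 over all genes. DESeq2 called 2 of the 32, SLC7A1 and SLC38A2, both lower, where 9.66% of all genes passed.

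The response in set B depends on its no-ligand libraries. Leaving out the no-ligand B2 library leaves the library with 54.4% mitochondrial counts as the only one of its group. The median response was then 0.53 over the 32 genes and 0.15 over all genes. DDIT3 was at 3.12, CEBPB at 2.10, PCK2 at 1.72 and ATF4 at 1.37 in that fit. Without the no-ligand B1 library the medians were -0.11 and 0.04, and without the serotonin B1 library 0.01 and -0.03. These fits also leave 1 library in a group. With the no-ligand B1 and serotonin B2 libraries both left out, 0 of 32 passed where 0.459% of all genes did, and ATF4 was at 0.08.

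**Figure D5:**
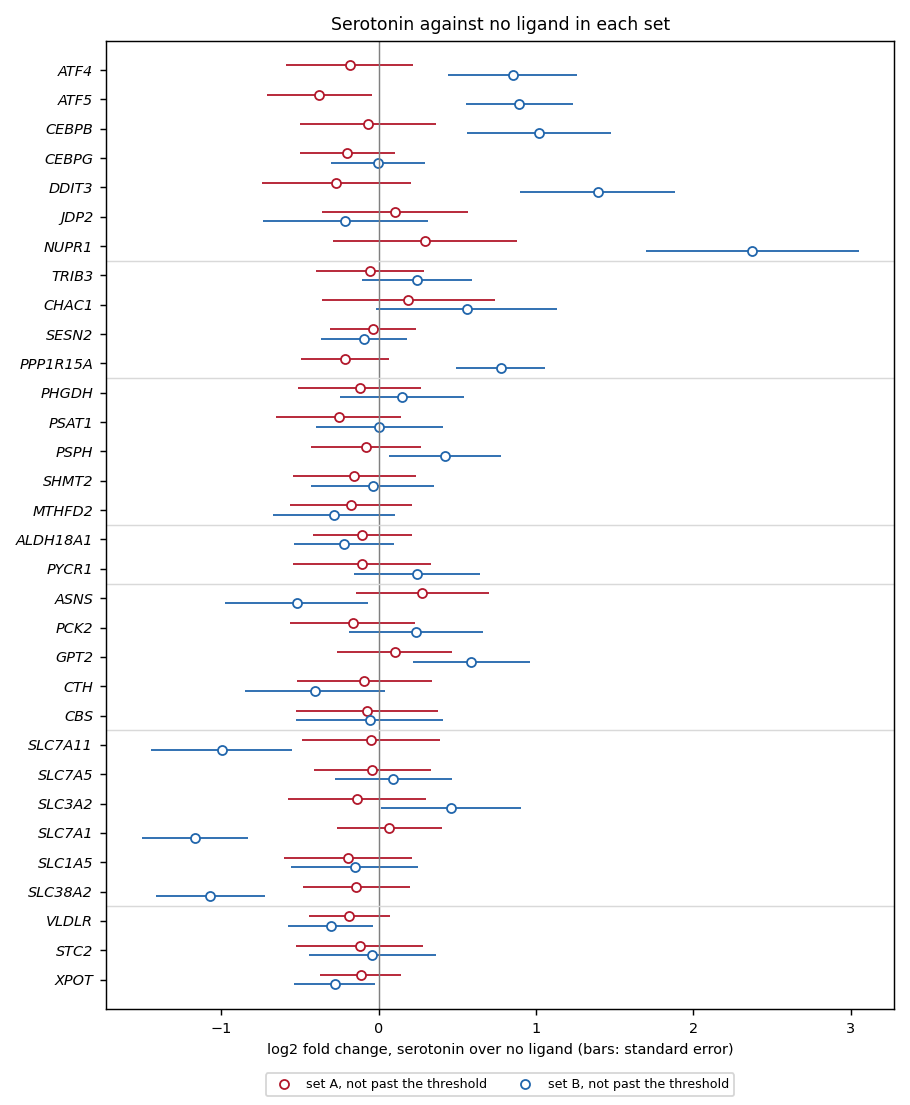
Log2 fold change of serotonin over no ligand (horizontal axis, bars are standard errors) for each of the 32 genes, in set A in red and set B in blue. No gene had an edgeR adjusted p under 0.05 in either set, and the widest values are 2.37 for NUPR1 and -1.17 for SLC7A1, both in set B.

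The difference between the 2 responses, set A minus set B, passed for 0 of the 32 genes and for 0% of all genes, with an unadjusted p under 0.05 for 5 of the 32 and 2564 of all. These 5 were NUPR1 (-2.08 ± 0.90), DDIT3 (-1.66 ± 0.68), ATF5 (-1.27 ± 0.48), PPP1R15A (-0.99 ± 0.40) and SLC7A1 (1.24 ± 0.47), with edgeR adjusted p of 0.302 to 0.325. ATF4 was at -1.04 ± 0.58 (edgeR adjusted p = 0.391). PYCR1 was at -0.35 ± 0.59 and CEBPG at -0.19 ± 0.42. For ATF5 and PPP1R15A, which passed in the set comparison after serotonin and not without ligand, a different size in the 2 treatments is therefore not shown in the filtered edgeR fit of all 8 libraries. Without the no-ligand B2 library, 8 of the 32 passed, 7 lower and 1 higher, where 18.9% of all genes did, and ATF4, ATF5 and PPP1R15A were among the 7. That fit has the no-ligand B1 library as the only one of its group. Without the low-count filter DDIT3 passed, where 1.6% of all genes did. DESeq2 called 69 genes in this comparison, 0 of them among the 32.

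Other genes around the pathway were taken from lists written with earlier results of these data in view. Of 16 kinases, phosphatase subunits and eIF2 factors upstream of ATF4, 0 passed in either treatment or in the average with all 8 libraries. Of 20 cytosolic aminoacyl-tRNA synthetases, which charge tRNA and are known ATF4 targets in part, 0 passed in edgeR with all 8 libraries. Averaged over both treatments, 6 of the 20 were lower in set A without the no-ligand B1 library (16.4% of all genes passed), 5 were lower and 1 higher without both high-mitochondrial libraries (19.3%), and DESeq2 called 1 lower (9.37%). With all 8 libraries 16 of these 20 were below 0 with a median of -0.14, and 6 had an unadjusted p under 0.05. Of 16 tested genes of amino acid sensing by mTORC1, 0 passed with all 8 libraries. Without both high-mitochondrial libraries 1 upstream gene was lower and 1 mTORC1 gene higher in the average. Without the no-ligand B2 library 3 of the upstream genes (1 higher, 2 lower) and 4 of the mTORC1 genes (1 higher, 3 lower) passed without ligand, where 20.1% of all genes did.

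Of 17 tested further genes linked to ATF4, ALDH1L2 alone passed with all 8 libraries, and it was higher in set A. Of all genes, 1.52% were higher without ligand, 2.33% after serotonin and 5.27% in the average. Some others of the 17 passed as lower in the average without the no-ligand B1 library or without both high-mitochondrial libraries. More of all genes passed there too, and these fits leave 1 library in a group. ALDH1L2 was then at 2.85 and 2.62. ALDH1L2 is a mitochondrial folate enzyme that acts in the same compartment as SHMT2 and MTHFD2. It had 8.86, 10.5, 7.68 and 13.4 normalized CPM in set A and 1.73, 1.76, 1.47 and 0.503 in set B, in the library order given for SLC7A5. The sets did not overlap, and the log2 difference was 2.46 ± 0.52 without ligand (edgeR adjusted p = 0.0345) and 3.32 ± 0.52 after serotonin (edgeR adjusted p = 0.00709). Without the no-ligand A1 or A2 library the first was not past the threshold (edgeR adjusted p = 0.156 and 0.263), nor the second without the serotonin A2 or B2 library (0.0729 and 0.085). The averaged difference of 2.89 ± 0.37 passed with any 1 library left out, from 2.64 to 3.36.

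Of 20 genes of the ATF6 and XBP1 branch of the unfolded protein response, which act beside ATF4 under stress of the endoplasmic reticulum, 5 were higher in set A in the average, where 5.27% of all genes were, and 0 were lower, where 4.09% were. The leading genes were MANF, a secreted stress-response factor, at 1.38 ± 0.27 (edgeR adjusted p = 0.00998), PDIA4, a disulfide isomerase, at 0.87 ± 0.24 (0.0413) and EDEM1, which takes part in disposal of misfolded glycoproteins, at 0.81 ± 0.21 (0.0337). The median over the 20 was 0.58. EDEM1 and SEL1L passed after serotonin, at 1.21 ± 0.30 and 1.20 ± 0.30 (edgeR adjusted p = 0.0434 and 0.0463). They were 2 of the 20, where 2.33% of all genes were higher. MANF had 112 to 159 normalized CPM in set A and 28.8 to 71.9 in set B. The averaged calls depend on single libraries, and all were lost without the no-ligand A2 or serotonin B2 library. With 1 library left out the averaged MANF difference ran from 1.10 to 1.82. It was 1.04 without both high-mitochondrial libraries. The averaged count of 5 became 9 without the low-count filter, where 6.47% of all genes passed in either direction. It was 2 with scaling by library size alone (7.13% of all genes) and 1 with the replicate block (6.44%).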

How the data were processed

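Per the file headers, the authors counted read pairs per gene with featureCounts 2.0.1 on GENCODE release 28, reverse-stranded. The submitters' processing notes name cutadapt 3.4, STAR 2.7.8a, Bowtie2, SAMtools 1.12 and the hg38 build, with no role given. The deposited values are raw counts. In R 4.3.3, edgeR 4.0.16 filtered low counts (filterByExpr), scaled by TMM and fitted 1 quasi-likelihood model of 4 groups to all 8 columns. P-values were Benjamini-Hochberg adjusted over 17144 genes and called under 0.05. A standard error is the log2 fold change divided by the square root of F. Normalized CPM uses TMM-scaled library sizes; TPM uses the table's gene lengths. Columns were placed in treatments by name and in sets A and B by letter, with the cell line read from HTR1E counts. Members and lists were chosen with earlier results of these data known. Values in every library were printed for genes past the threshold in a planned comparison and for ATF4; SLC7A5, PCK2 and other genes given with values were chosen after their values were seen. Symbols were assigned to 57754 of 58440 identifiers. Alternatives were DESeq2 1.42.0, other scalings, no filter, a replicate block and left-out libraries.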

Additional observations from a re-analysis of the deposited data

How the results depend on the processing

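Same-named columns did not deviate together (correlations of -0.488 to 0.148 between groups). With 2 libraries a group and libraries of unequal quality, these values cannot decide whether the names pair the samples. The replicate block on the letter R gave 268 genes without ligand and 480 genes with 2 members after serotonin. The crossed pairing, with R swapped between the serotonin A1 and A2 libraries, gave 2107 genes after serotonin. With all 8 libraries and the settings of the report, the numbers were 415 genes and 1 member without ligand, 900 and 4 after serotonin, 2 and 0 for the response in set B, 0 and 0 for the response in set A and for the difference between responses, and 1604 and 5 for the average of both treatments. In the same order of genes and members, scaling by library size alone gave 0 members without ligand, 340 and 0 after serotonin, 0 genes for set B and 2 members in the average. No low-count filter gave 1117 and 3, 1985 and 9, 1830 and 3 for set B, and 570 and 1 for the difference between responses. DESeq2 gave 761 and 5 without ligand, 1406 and 6 after serotonin, 1442 and 2 for set B and 69 genes for the difference. Fitting only the columns compared gave 15 and 0 without ligand, 2312 and 9 after serotonin and 9 genes for set B. Without the no-ligand B1 and serotonin B2 libraries the numbers were 1542 and 8, 1850 and 8, 84 genes for set B, 7 genes for the difference and 3529 and 15 in the average. Leaving out 1 library gave 60 to 3693 genes and 0 to 7 members without ligand, 83 to 3347 and 0 to 9 after serotonin, 0 to 4846 and 0 to 10 for set B, 0 to 3482 and 0 to 8 for the difference, 514 to 3520 and 1 to 13 in the average, and 0 and 0 for set A. The cause of these changes was not tested. No called member changed sign under any alternative run. The averaged PYCR1 difference passed in 15 of 15 alternatives, from -2.72 to -1.93, and that of CEBPG in 13 of 15. Of the single-gene values, 2678 kept their direction and side of the threshold, 96 newly passed, 42 no longer passed and 224 that passed in neither changed sign. The no-ligand B1 library, with 2604885 counts, limits the low genes of set B.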
